A study of Mus musculus with 5 samples.

Results

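Aerocytes, the Car4-expressing capillary endothelial cells of the mouse lung alveolus, were examined in 4 single-cell RNA libraries from newborn mice kept in air or exposed to hyperoxia. A cell was counted as an aerocyte by a rule on its own counts: at least 2 of the endothelial genes Cdh5, Pecam1, Cldn5, Ptprb, Clec14a and Egfl7 detected, no count of Vwf, and at least 2 counts of Car4 and Ednrb together. The rule found 503 cells among 12707 that passed the limits on genes and mitochondrial counts, of which 3197 met its endothelial condition. It found 58 cells in air at pnd7 (postnatal day 7), 69 after hyperoxia at pnd7, 184 in air at pnd60 and 192 after hyperoxia at pnd60.

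The study asked how neonatal hyperoxia changes the cells of the developing lung, senescence in particular. Newborn C57BL/6J mice were kept with their dams in room air or in more than 95% O2 for 3 days and then returned to room air, and the dams were exchanged between litters each day. Lung cells were taken at pnd7 or pnd60 and run on the 10x Genomics system, with 1 library for each combination of exposure and age, and the number of mice behind each of these libraries is not stated in the labels. A further library, sorted for the senescence dye C12FDG from 3 pooled hyperoxia-exposed mice at pnd7, held 1 cell that met the rule among 493 and was not used. Because each condition had 1 library, no test between conditions was made: intervals are 95% and cover counting error only, and differences between mice, litters, preparations and sequencing cannot be told apart from those of exposure or age.

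The alveolar capillary bed is built of a pair of intermingled endothelial cell types. Aerocytes are large, thin cells that lie against the type I epithelium where gas is exchanged, and general capillary cells, which express Gpihbp1, Plvap and Kit, act as their progenitors. Car4 encodes a carbonic anhydrase tethered to the cell surface that handles carbon dioxide and bicarbonate, and Ednrb encodes a receptor that takes up endothelin. Apln, the ligand of the apelin receptor, marks aerocytes, whereas its receptor gene Aplnr marks general capillary cells. Signalling through Kdr, the main receptor of VEGFA, is required for aerocytes to form.

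Depth per cell differed with age. The median aerocyte held 6000.5 counts in air and 4928 after hyperoxia at pnd7, against 2318.5 and 2435 at pnd60, and the summed counts of the aerocytes were 711549, 750637, 569434 and 692146 in the order air pnd7, hyperoxia pnd7, air pnd60 and hyperoxia pnd60, which is kept below. No cell barcode was shared between the aerocytes of any 2 libraries. A fixed minimum of 2 counts asks for a higher level in a shallow cell: it corresponded to 333, 406, 863 and 821 CPM at the median depth of the 4 libraries. CPM is the count of a gene divided by all counts of the same cells and multiplied by 1000000. Cells with exactly 2 counts, just inside the rule, numbered 22, 18, 49 and 43, and cells with 1 count, just outside it, 65, 35, 113 and 91.

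The rule fixed a part of the expression of the aerocytes. Cdh5, the adhesion molecule of endothelial junctions, was measured at 1390, 1408, 2850 and 2726 CPM in their summed counts and Pecam1 at 698, 747, 1638 and 1527 CPM. Car4 stood at 535, 711, 1777 and 1387 CPM and Ednrb at 315, 398, 1264 and 1154 CPM, and these 4 genes were all used by the rule. Cldn5 was listed at 0 in all 4 libraries, so that the rule rested on the other 5 endothelial genes. The 20 endothelial genes of a list that the rule did not use, among them Kdr, Tek and Ramp2, were all detected in each library.

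Against general capillary cells of the same library, chosen by counts of Gpihbp1, Plvap, Aplnr and Cd93 with none of Car4, Ednrb or Vwf (122, 124, 379 and 417 cells), the aerocytes differed in a short set of genes. Of 8380 genes with enough counts, 63 (0.752%) were at least 2-fold higher and 16 (0.191%) at least 2-fold lower in all 4 libraries, and against Vwf-positive endothelial cells 85 (1.03%) were higher and 88 (1.07%) lower of 8241. Since the rule chose both sides of these contrasts, the differences are a description of the cells and not a test. Of the 13 measured genes on the aerocyte list, 10 were at least 2-fold higher than in general capillary cells in every library, with list medians of 2.06, 2.14, 2.95 and 2.37 on the log2 scale, whereas 2 of 8 general capillary genes, Kit and Plvap, were at least 2-fold lower throughout. Plvap was used to choose the general capillary cells, so its lower level was in part fixed by that choice. Kit was not used.

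Chst1, a sulfotransferase that modifies keratan sulfate, had the highest ratio when each gene was taken at its lowest library (4.25 on the log2 scale). It was at 103, 119, 451 and 413 CPM in aerocytes against 3.05, 6.22, 4.70 and 12.4 CPM in general capillary cells. Apln was at 149, 213, 432 and 367 CPM against 19.8, 29.9, 7.05 and 12.4 CPM. Fibin, which encodes a small secreted protein, was at 150, 180, 520 and 517 CPM against 19.8, 21.2, 3.52 and 3.11 CPM. For these genes the lowest aerocyte library lay above the highest general capillary library. The same held for the transcription factor Tbx2 (437, 468, 694 and 588 CPM against 76.2, 94.6, 41.1 and 45.6 CPM) and for Emp2, a small membrane protein that partners with integrins and caveolae (1050, 1300, 3461 and 3167 CPM against 186, 207, 192 and 379 CPM).

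Krt80, a keratin, was also in the set, at 71.7, 124, 479 and 406 CPM against 13.7, 6.22, 76.4 and 78.8 CPM. Gnao1, an alpha subunit of heterotrimeric G proteins, was at 104, 112, 279 and 250 CPM against 24.4, 13.7, 22.3 and 28.0 CPM. On the lower side were Kit, the receptor of stem cell factor, at 169, 140, 197 and 173 CPM against 433, 329, 616 and 692 CPM, and Plvap, which forms the diaphragms of caveolae and fenestrae, at 306, 297, 306 and 308 CPM against 626, 723, 973 and 1038 CPM. Plvap, unlike Kit, was used to choose the general capillary cells. The Notch ligand Dll1 and the Notch target Hey1 were the 2 of 8 measured Notch pathway genes that were at least 2-fold lower in every library. Cdkn2b, an inhibitor of cyclin-dependent kinases, was higher in aerocytes, at 50.6, 65.3, 121 and 93.9 CPM against 10.7, 18.7, 2.35 and 10.4 CPM.

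**Figure D1:**
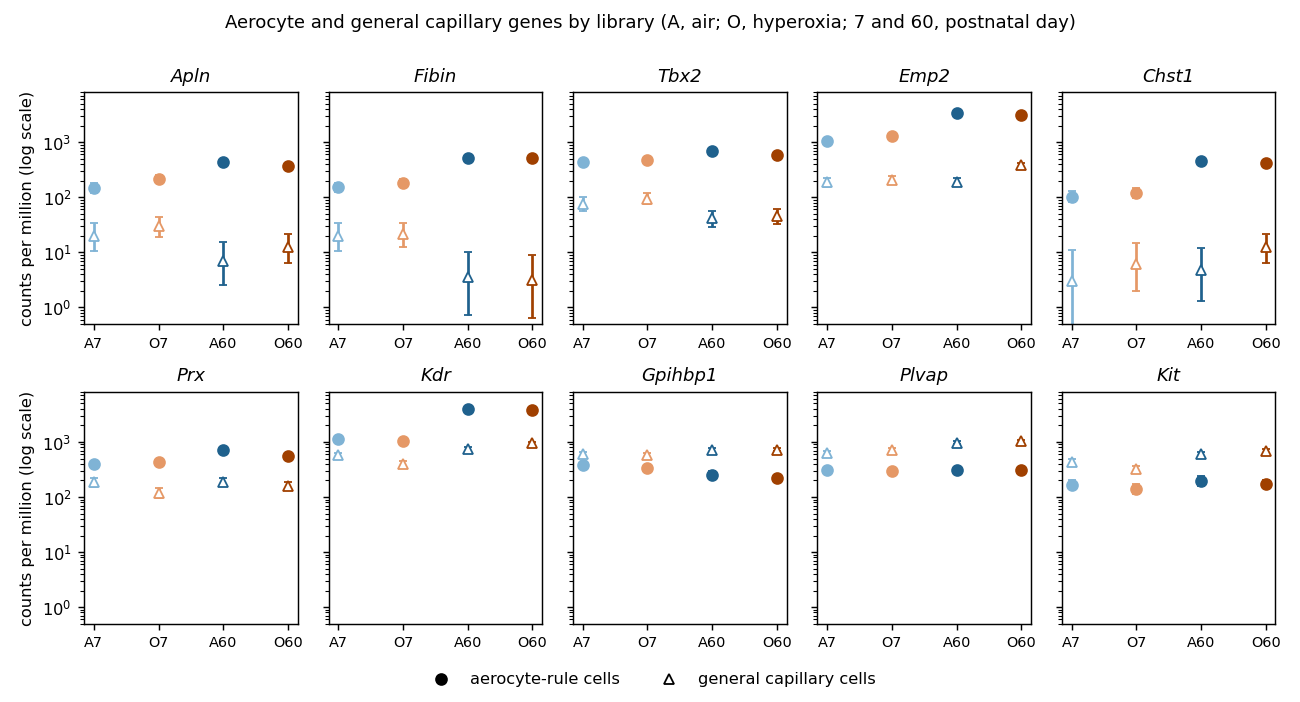
CPM (log axis) of 10 genes in the summed counts of aerocytes (filled circles) and general capillary cells (open triangles) in each library, with exact 95% Poisson intervals where they are wider than the symbol. Apln, Fibin, Tbx2, Emp2 and Chst1 are higher in aerocytes in all 4 libraries, and Plvap and Kit lower. Gpihbp1 and Plvap were used to choose the general capillary cells.

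The label did not hold equally for all of the cells. Both Car4 and Ednrb were detected in 39, 50, 113 and 138 of the cells (67.2%, 72.5%, 61.4% and 71.9%), Car4 without Ednrb in 12, 14, 69 and 46, and Ednrb without Car4 in 7, 5, 2 and 8. Cells with both genes carried the aerocyte genes and, at pnd60, little of the general capillary genes. In these cells Apln was at 201, 336, 640 and 594 CPM and Fibin at 187, 199, 795 and 831 CPM. In cells with Car4 alone Apln was at 14.6, 28.2, 60.8 and 10.2 CPM and Fibin at 14.6, 11.3, 25.3 and 35.7 CPM. At pnd60 the cells with Car4 alone had more Plvap, at 699 in air and 786 CPM after hyperoxia, than the cells with both genes, at 92.9 and 40.2 CPM, and likewise more Gpihbp1, which anchors lipoprotein lipase to capillaries, at 461 and 521 against 139 and 78.1 CPM. For Plvap and Gpihbp1 at pnd60 the cells with Car4 alone lay between the cells with both genes and general capillary cells. Counts of Plvap and Gpihbp1 helped to choose the general capillary cells, so this order was in part set by the choice. Each comparison below was repeated in the cells with both Car4 and Ednrb. Cells just inside the rule were also low in Apln, at 21.9, 23.9, 22.8 and 47.6 CPM, against 19, 12.3, 16.5 and 7.23 CPM just outside it. Their Plvap was at 617, 95.8, 729 and 845 CPM.

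**Figure D2:**
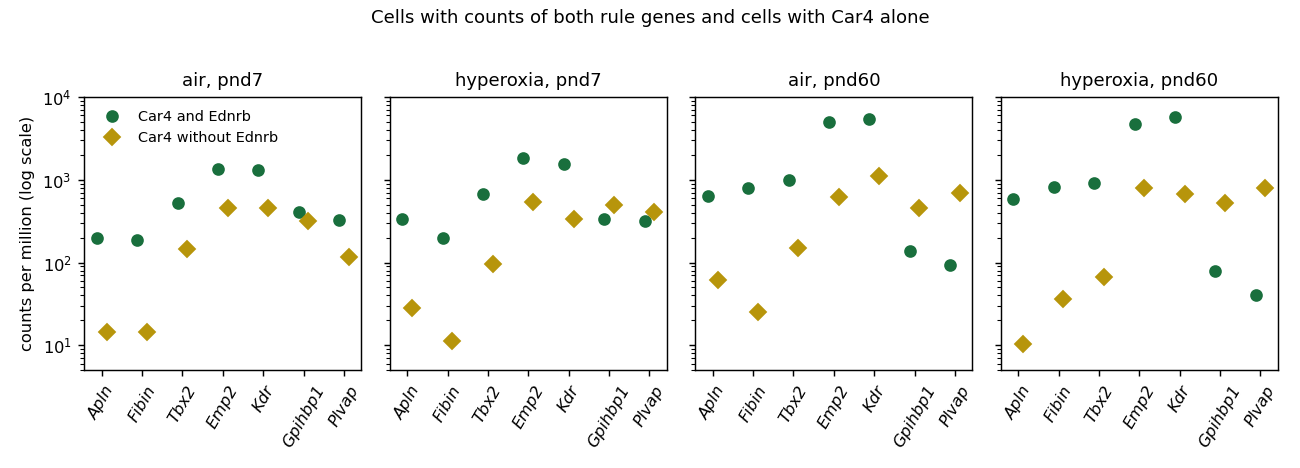
CPM (log axis) of 5 genes higher in aerocytes (Apln, Fibin, Tbx2, Emp2 and Kdr) and 2 general capillary genes (Gpihbp1 and Plvap) in the summed counts of cells that met the rule with both Car4 and Ednrb (circles) or with Car4 alone (diamonds), by library. Cells with both genes are higher for the first 5 genes in every library and lower for the last 2 at pnd60.

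Some of the aerocytes also carried RNA of other cell types. A total of 63 cells (19, 10, 16 and 18) had at least as many counts of another class as of endothelial genes, most often type II cell genes in air at pnd7 (15 cells), fibroblast genes after hyperoxia at pnd7 (6 cells), macrophage and general leukocyte genes in air at pnd60 (8 cells each) and type II cell genes after hyperoxia at pnd60 (9 cells). The 8 type II cell genes summed to 35743, 8394, 2945 and 13422 CPM, with Sftpc as the most abundant, and to 207, 285, 447 and 972 CPM in the 440 cells without another class. Of these 8 genes, 0, 1, 1 and 1 were at 0. The 5 hemoglobin and erythroid genes summed to 7571, 54209, 148 and 27.5 CPM, with Hbb-bs as the most abundant, and in 3 of the 69 cells after hyperoxia at pnd7 hemoglobin genes made up more than 50% of all counts. The 8 fibroblast genes summed to 2108, 4132, 829 and 1386 CPM, led by Mfap4 at pnd7 and Inmt at pnd60, with 1, 2, 0 and 0 of them at 0. The 9 macrophage genes summed to 43.6, 582, 1175 and 1527 CPM, led by Mrc1, C1qa, Chil3 and Chil3, with 3, 0, 2 and 0 at 0. The 7 airway genes, of which Scgb1a1 made up more than 92% in each library, summed to 1209, 17.3, 1573 and 6195 CPM, with 3, 5, 3 and 1 at 0. Lymphatic endothelial genes (Prox1 and Mmrn1 at 2 or more counts together) were found in 2, 0, 0 and 2 cells. The part of this RNA in the results was not tested, and values in the cells without another class are given beside some of those it touches.

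The share of endothelial cells that met the aerocyte rule was 11.5% in air at pnd7 (58 of 503, interval 8.87 to 14.7), 20% after hyperoxia at pnd7 (69 of 345, 15.9 to 24.6), 16.0% in air at pnd60 (184 of 1149, 13.9 to 18.3) and 16.0% after hyperoxia at pnd60 (192 of 1200, 14.0 to 18.2). At pnd7 the share was higher after hyperoxia and the intervals did not overlap, whereas at pnd60 the shares of the groups were the same to 3 digits. The median endothelial cell at pnd7 held 4623 counts after hyperoxia and 2983 in air. With every cell reduced at random to 1000 counts before the rule was applied, the shares were 7.97% (5.06 to 11.8), 12.6% (8.73 to 17.4), 13.9% and 14.1%. At pnd7 the share was again higher after hyperoxia, and the intervals, which rested on 22 and 31 aerocytes, overlapped. The part of depth in the difference was not tested. Of all filtered cells, aerocytes made up 2.51%, 5.54%, 4.18% and 4.04%. The shares at pnd7 are shares of cells recovered from dissociated lung, so that the number of aerocytes in the lung cannot be told apart from their recovery.

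**Figure D3:**
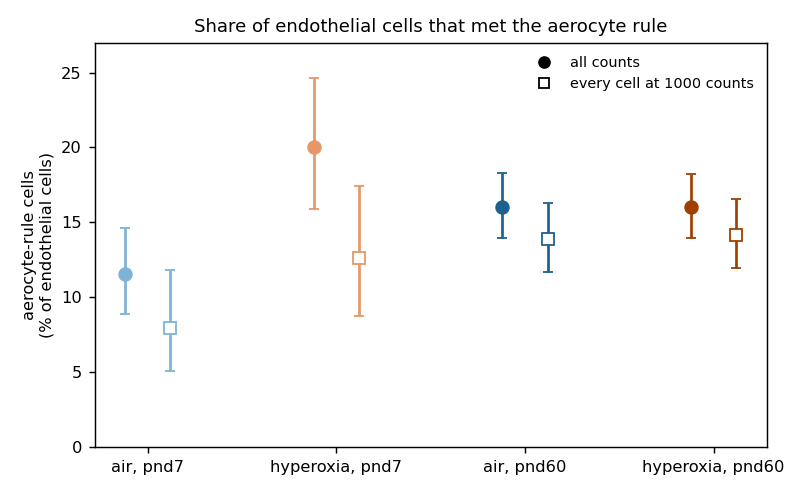
Aerocytes as a percentage of endothelial cells in each library, with exact 95% binomial intervals, from all counts (filled circles) and with every cell reduced to 1000 counts before the rule was applied (open squares). At pnd7 the values are 11.5% in air and 20% after hyperoxia from all counts and 7.97% and 12.6% at 1000 counts, and at pnd60 the 2 exposures lie side by side.

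The comparison of pnd60 with pnd7 asked how aerocytes differ between the phase of alveolar growth and adulthood, and it was made separately in air and after hyperoxia, with no library in common. Aerocytes at pnd60 had more of the VEGF receptor Kdr, the guidance molecules Sema7a and Sema3f, the fatty acid transporter Cd36, the anticoagulant receptor Thbd and the class I MHC light chain B2m, and less of the cell cycle genes, imprinted growth genes and several basement membrane genes. In air 870 genes (16.8%) were at least 2-fold higher at pnd60 and 763 (14.8%) at least 2-fold lower among 5165 measured, that is, with 50 or more counts in the aerocytes of both libraries together. After hyperoxia 933 (16.9%) were higher and 642 (11.6%) lower among 5533. The median gene was at 0.11 in air and 0.21 after hyperoxia on the log2 scale. Centred on that median the split was 749 higher and 878 lower in air and 650 and 896 after hyperoxia, and with edgeR's TMM factors 746 and 880, and 662 and 891, so that the balance between directions turned with the scaling in both comparisons.

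Most of these genes were shared between the exposures. Among 4938 genes measured in both comparisons, 535 were at least 2-fold higher at pnd60 in both, which was 64.5% of those higher in air and 65.4% of those higher after hyperoxia. A further 410 were at least 2-fold lower in both, which was 57.9% and 72.7% of the lower genes, and 32 were past 2-fold in opposite directions. In the cells without another class 3 genes were opposite among 3861.

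The VEGF receptor Kdr and its co-receptor Nrp1 were at least 2-fold higher at pnd60 in both comparisons, but the VEGF list stood below 2-fold with the rule applied at equal depth, to every cell at 1000 counts (0.80 in air and 0.67 after hyperoxia) and at -0.36 in air when genes with 20 counts were let in. Kdr was at 1130, 1035, 3909 and 3843 CPM, a difference of 1.79 (log2, 1.67 to 1.91) in air and 1.89 (1.78 to 2.01) after hyperoxia, and of 0.81 and 1.28 at equal depth. Nrp1, which also binds semaphorins, was at 1166, 1284, 3881 and 3664 CPM. For both genes the 2 libraries at pnd7 lay close together, as did the 2 at pnd60, and the ages did not overlap. Of the VEGF list 4 of 6 measured genes were higher and 1 lower in air (Vegfa, Kdr, Flt1 and Nrp1, against Nrp2), and 4 of 7 were higher and 1 lower after hyperoxia (Kdr, Nrp1, Flt4 and Nrp2, against Vegfd). For Nrp2, 84.0% of the counts in air at pnd7 and 44.2% after hyperoxia at pnd60 came from 1 cell, and for Flt4 54.1% and 40.4%. Of the Notch list 3 of 7 measured genes were higher in air and 1 of 6 after hyperoxia, against 16.8% and 16.9% of all measured genes, and of the apelin and endothelin list, which holds Ednrb itself, 3 of 5 were higher in air, and 2 of 6 were higher and 1 lower after hyperoxia.

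Semaphorins and ephrins, which guide vessels and axons, were higher in most of the measured genes. Of 12 measured genes, 9 were at least 2-fold higher at pnd60 in air and 8 after hyperoxia, none was lower, and the medians were 1.41 and 1.30. Among all measured genes 16.8% were higher and 14.8% lower in air, and 16.9% and 11.6% after hyperoxia. Sema7a, a membrane-anchored semaphorin, was at 87.1, 101, 523 and 452 CPM (2.59, 2.19 to 3.01, in air and 2.16, 1.79 to 2.54, after hyperoxia). Sema3f, a secreted semaphorin that binds neuropilins, was at 205, 203, 745 and 701 CPM. Itga3, the laminin-binding integrin alpha 3, was higher as well, at 94.2, 129, 550 and 514 CPM.

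Genes that respond to blood flow were also higher at pnd60, although Klf2 and Klf4 after hyperoxia stood at 0.40 and 0.86 with the rule applied at equal depth. Klf2 and Klf4, transcription factors induced by shear stress, were at 627, 516, 1960 and 1169 CPM and at 437, 357, 1918 and 1114 CPM. Thbd, which encodes thrombomodulin, was at 423, 421, 2130 and 1708 CPM, a difference of 2.33 (2.15 to 2.52) in air and 2.02 (1.84 to 2.20) after hyperoxia. Of the 6 measured genes of the angiopoietin and shear list, 4 were higher in each comparison and none was lower. Within the BMP and TGF-β list, 6 of 15 genes were higher and 1 lower in air, and 7 of 16 were higher after hyperoxia, and none lower, against 16.8% higher and 14.8% lower of all measured genes in air and 16.9% and 11.6% after hyperoxia. Its members Bmpr2, the BMP receptor that is mutated in heritable pulmonary hypertension, and Smad6, an inhibitor of BMP signalling, were at 509, 497, 1633 and 1279 CPM and at 150, 192, 611 and 558 CPM. With the rule at equal depth they differed by 1.12 and 1.54 in air and by 0.81 and 0.84 after hyperoxia.

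Some genes of class I antigen presentation and of adhesion were higher at pnd60. B2m was at 308, 586, 2646 and 2650 CPM, with a difference of 3.1 (2.90 to 3.32) in air and 2.18 (2.03 to 2.33) after hyperoxia. H2-T23, a nonclassical class I molecule, was at 71.7, 104, 246 and 240 CPM. All 5 measured class I genes were at least 2-fold higher at pnd60 in air and 3 of 5 after hyperoxia, against 16.8% and 16.9% of all measured genes. H2-K1 and H2-D1 were listed at or near 0 and could not be used. Cd36 was at 510, 534, 2457 and 2176 CPM. Cd47, the signal that restrains phagocytes, was at 312, 294, 955 and 941 CPM, Icam1 at 77.3, 99.9, 253 and 300 CPM, and Cx3cl1, a membrane-bound chemokine, at 42.2, 55.9, 241 and 198 CPM. These 6 genes were past 2-fold in both comparisons. Over the adhesion list, 5 of 7 measured genes were higher and 1, the chemokine scavenger Ackr3, lower in air (-1.04), and 4 of 7 were higher after hyperoxia. The shares of all measured genes were 16.8% higher and 14.8% lower in air, and 16.9% and 11.6% after hyperoxia.

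Proliferation genes were lower at pnd60, where the 25 genes of the cell cycle list summed to 911 and 1199 CPM against 6133 and 4363 CPM at pnd7. A count of Mki67 or Top2a was found in 19 of 58 aerocytes (32.8%, 21.0 to 46.3) and 31 of 69 (44.9%, 32.9 to 57.4) at pnd7, and in 1 of 184 (0.543%) and 2 of 192 (1.04%) at pnd60. With cells reduced to 1000 counts the shares were 15.8%, 18.8%, 0.549% and 0.526%. Of the cell cycle list, 16 of 18 measured genes were at least 2-fold lower at pnd60 in air (median -4.98) and 16 of 20 after hyperoxia (median -2.66). The shares of all measured genes that were lower were 14.8% and 11.6%. Top2a, the DNA topoisomerase of dividing cells, was at 462, 330, 1.76 and 44.8 CPM, and 96.8% of its counts after hyperoxia at pnd60 were in 1 cell. Hmgb2, a chromatin protein of cycling cells, was at 1171, 814, 94.8 and 104 CPM and Stmn1, a microtubule regulator, at 984, 841, 134 and 150 CPM. H1f10, a linker histone, was at 212, 155, 3.51 and 2.89 CPM.

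Imprinted genes of fetal growth were lower at pnd60, 8 of 9 measured in air (median -2.51) and 4 of 7 after hyperoxia (median -3.11), against 14.8% and 11.6% of all measured genes. Mest was at 510, 690, 89.6 and 53.5 CPM and Cdkn1c, a brake on the cell cycle, at 88.5, 74.6, 7.03 and 8.67 CPM. Within the basement membrane list, 7 genes were lower in each comparison and 1 was higher, of 16 measured in air and 17 after hyperoxia. In the cells without another class 5 were lower and 1 higher of 13 and of 15. All measured genes gave 14.8% lower and 16.8% higher in air, and 11.6% and 16.9% after hyperoxia. Muscle and pericyte genes moved with the basement membrane genes: all 5 measured were lower in each comparison. Of 7 measured fibroblast genes, 5 were lower and 1 higher in air, and 4 lower and 2 higher after hyperoxia. In the cells without another class, 1 was lower and 1 higher of 2 in air, and 3 lower and 1 higher of 5 after hyperoxia. The 7 muscle and pericyte genes, led by Acta2 at pnd7 and Cox4i2 at pnd60 and none of them at 0, summed to 1296, 895, 102 and 98.2 CPM. In the cells without another class they summed to 337, 523, 116 and 116 CPM, and their part in the basement membrane values was not tested. Sparc, a matrix protein that binds collagen, was at 2488, 2752, 760 and 913 CPM, and Lamb1, a laminin chain, at 108, 108, 15.8 and 8.67 CPM. Col4a1, the collagen IV chain, was at 1862, 1904, 1129 and 1076 CPM and did not pass 2-fold. The member that was higher was Itga3.

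Some metabolic and antioxidant genes were past 2-fold. Gpx3, the extracellular glutathione peroxidase, was at 32.3, 40.0, 299 and 410 CPM, and Prdx2, a cytosolic peroxiredoxin, at 433, 489, 107 and 146 CPM. Ldha, the lactate dehydrogenase of glycolysis, was at 294, 281, 87.8 and 98.2 CPM. Of 15 measured antioxidant genes, 3 were higher and 3 lower in air, and 4 and 3 after hyperoxia, numbers near the shares of all measured genes (16.8% and 14.8% in air, 16.9% and 11.6% after hyperoxia). Xdh, xanthine dehydrogenase, was at 16.9, 17.3, 306 and 267 CPM (4.18, 3.34 to 5.16, and 3.95, 3.14 to 4.88), and Adamtsl5, a secreted matrix protein, at 8.43, 2.66, 135 and 126 CPM.

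The size of the differences in aerocyte genes depended on how the cells were chosen. Over the aerocyte list, 8 of 13 measured genes were at least 2-fold higher at pnd60 in air (median 1.54) and 7 of 14 after hyperoxia (median 1.03), against 16.8% and 16.9% of all measured genes. In cells with both Car4 and Ednrb the medians were 1.67 and 1.09, and in the cells without another class 1.24 and 0.72, the latter below 2-fold. However, when the rule was applied to every cell at 1000 counts, so that the same level was asked of each age, 22, 31, 127 and 131 cells met it. The medians were then 0.50 and 0.31, with 1 of 13 and 5 of 13 genes past 2-fold. With that choice 28.5% and 27.7% of all measured genes were past 2-fold in either direction. The medians of the VEGF list given above were over 5 and 4 genes. The MHC class I list stayed past 2-fold at equal depth, with medians of 2.34 and 2.26 over 3 genes in each comparison, against 1.78 and 1.21 over 5 genes in all aerocytes. Among single genes with that choice, Sema7a differed by 1.51 and 1.60, Thbd by 1.67 and 1.51, Cd36 by 1.86 and 1.66, B2m by 2.34 and 2.26, Xdh by 4.0 and 4.31 and Mest by -3.06 and -4.15.

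**Figure D4:**
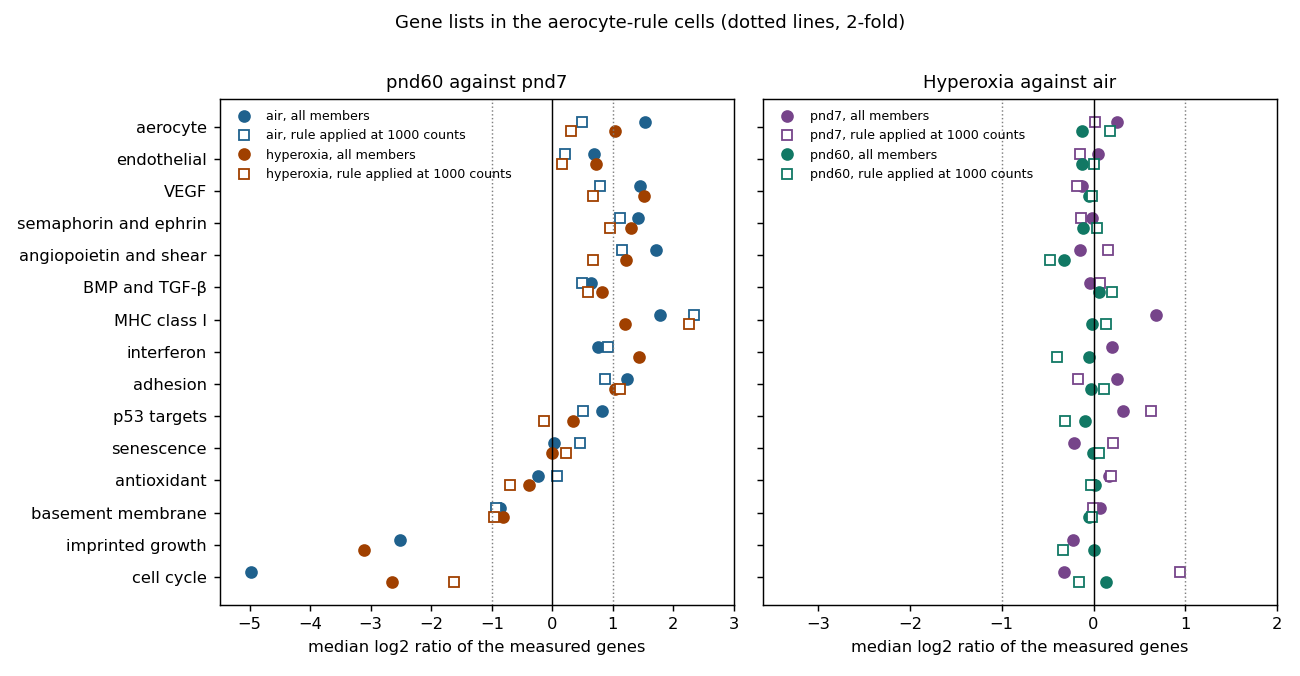
Median log2 ratio over the measured genes of 15 gene lists in the aerocytes, for pnd60 against pnd7 (left) and hyperoxia against air (right), with all aerocytes (filled circles) and with the rule applied to every cell at 1000 counts (open squares, shown where at least 3 genes were measured). Dotted lines mark 2-fold. With all aerocytes, the lists spread between -4.98 and 1.78 with age and stay within 2-fold with hyperoxia.

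The comparison of hyperoxia with air at pnd7 asked what neonatal hyperoxia left in the aerocytes. Among all 5356 measured genes, 85 (1.59%) were at least 2-fold higher and 129 (2.41%) at least 2-fold lower after hyperoxia, and 44 and 78 of 3969 in the cells without another class. The balance of directions depended on the processing here too, with 104 higher and 112 lower by TMM factors, 33 and 34 with erythroid and lymphatic cells left out as well, and 22 and 13 with the rule at equal depth. Of the aerocyte list 0 of 13 measured genes were past 2-fold (median 0.26) and of the endothelial list 0 of 20 (median 0.05), numbers too small to set apart from such a background. Apln was at 149 CPM in air and 213 CPM after hyperoxia, Tbx2 at 437 and 468 CPM, and Kdr at 1130 and 1035 CPM.

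The highest and lowest ratios included genes of other cell types. The 4 hemoglobin genes and Alas2, the first enzyme of heme synthesis in red cells, were higher after hyperoxia by 2.76 to 3.53 on the log2 scale, and in the cells without another class, a count that did not include red blood cells, by 5.23 (Hbb-bs) to 6.51 (Alas2). Of the 58 and 69 cells, 16 and 25 had at least as many counts of erythroid as of endothelial genes. After hyperoxia 1 cell held 30.2% of the Hbb-bs counts. By a mean over cells Hbb-bs and Hba-a2 stood at 0.79 and 0.60, with the rule at equal depth at 0.14 and -0.83, and with the erythroid cells among those left out, a choice made by these counts, at -0.22 and -0.53. All 7 measured type II cell genes were at least 2-fold lower after hyperoxia, against 2.41% of all measured genes, in step with the type II sums given above. In the cells without another class 1 of these genes was measured, and it did not pass 2-fold. The lymphatic genes Prox1, Mmrn1 and Nrp2 were lower after hyperoxia, and 96.1%, 96.9% and 84.0% of their counts in air came from 1 cell.

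A few genes outside these lists of other cell types were higher after hyperoxia. Edn1, the endothelin ligand whose receptor Ednrb marks these cells, was at 70.3 CPM in air and 157 CPM after hyperoxia (log2 1.16, 0.67 to 1.67), with counts in 12 of 58 and 24 of 69 cells, and at 1.29 in the cells with both Car4 and Ednrb. The top cell held 22% of the Edn1 counts in air and 35.6% after hyperoxia, and general capillary cells had more Edn1 than aerocytes in both libraries, at 216 and 284 CPM. Phlda3, a p53 target that restrains Akt, was at 91.4 and 184 CPM (1.01, 0.57 to 1.46), with 7.69% of its counts in the top cell in air and 7.25% after hyperoxia. Gpx1, the cytosolic glutathione peroxidase, was at 170 and 342 CPM (1.01, 0.69 to 1.33), with 25.3% of its counts after hyperoxia in 1 cell and a ratio of 0.57 in the cells with both Car4 and Ednrb. It was the 1 higher gene of 14 measured antioxidant genes, and 1 was lower, the metallothionein Mt1 (-1.66). These counts are too small to set apart from the 1.59% higher and 2.41% lower of all measured genes. Phlda3 stood at 0.77 in the cells without another class, below 2-fold.

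The p53 and senescence genes were of interest because senescence was the subject of the study. Cdkn1a, which encodes the cell cycle inhibitor p21, had 6 counts in air and 23 after hyperoxia at pnd7 (8.43 and 30.6 CPM), in 4 of 58 and 14 of 69 cells, too few counts to be measured by the rule of 50. Reduced to 1000 counts, the shares of cells with a count were 1.75% and 1.45%. Of the p53 target list 1 of 7 measured genes, Phlda3, was at least 2-fold higher and none lower (median 0.32), against 1.59% and 2.41% of all measured genes, and 0 of 5 in the cells without another class. Of the senescence list 0 of 12 were past 2-fold (median -0.21). In the cells without another class 1 of 11 was lower (median -0.26), against 1.97% of all measured genes. Lmnb1, the lamin whose loss marks senescent nuclei, differed by -0.33, and by 0.58 where at least 3 counts of Car4 and Ednrb were asked for.

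Cell cycle genes gave no stable direction at pnd7. Of 24 measured genes, 4 were at least 2-fold lower after hyperoxia and 0 higher, against 2.41% and 1.59% of all measured genes, with a median of -0.33. Cenpf, a kinetochore protein, was at 438 and 135 CPM and Ube2c, a ubiquitin-conjugating enzyme of mitosis, at 413 and 168 CPM. A single cell held 34.0% of the Cenpf counts in air and 35.6% after hyperoxia. When at least 3 counts of Car4 and Ednrb were asked for, which left 36 and 51 cells, the same genes were at 0.43 and 0.61, and Ccnb1 and Cdk1 turned from -1.80 and -1.08 to 1.04 and 0.29. The share of cells with a count of Mki67 or Top2a had overlapping intervals in the 2 libraries, as given above.

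The comparison of hyperoxia with air at pnd60 asked what remained in adult aerocytes after recovery in room air. Among 5174 measured genes 108 (2.09%) were at least 2-fold higher and 32 (0.618%) at least 2-fold lower after hyperoxia, and 32 and 26 of 4205 in the cells without another class. The balance of directions depended on the processing, with 91 higher and 93 lower by a mean over cells, 8 and 13 with the aerocytes reduced to 1000 counts, and 21 and 47 with the rule at equal depth. The aerocyte list held 0 of 14 genes past 2-fold (median -0.12) and the endothelial list 0 of 20 (median -0.12), again too few to set apart from this background. The gene with the lowest ratio was Cyp1a1, a cytochrome P450 that is induced through the aryl hydrocarbon receptor.

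Cyp1a1 had 622 counts in the aerocytes of the air library at pnd60 and 78 after hyperoxia, that is 1092 CPM (1008 to 1182) and 113 CPM (89.1 to 141). The log2 difference was -3.28 (-3.64 to -2.94). Counts were found in 71 of 184 cells (38.6%) and in 30 of 192 (15.6%), and in 33.0% and 8.42% of the cells reduced to 1000 counts. No single cell held more than 6.91% of the counts in air and 7.69% after hyperoxia. The difference was -3.1 in the cells without another class, -3.00 in the cells with both Car4 and Ednrb, and -2.72 with the rule applied at 1000 counts.

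At pnd7 Cyp1a1 was nearly absent, with 2 counts in air and 0 after hyperoxia in the aerocytes, so that the difference between ages was 8.60 in air and at least 4.82 after hyperoxia. The lower level after hyperoxia at pnd60 was not particular to aerocytes: general capillary cells had 248 CPM in air and 61.1 CPM after hyperoxia, and Vwf-positive endothelial cells 256 and 43.8 CPM. Outside the endothelial cells 30 counts in 3248 cells (0.89% of the cells) gave 2.61 CPM in air, and 0 counts were found in 3556 cells after hyperoxia. The median depths behind these shares were 2318.5 and 2435 counts in aerocytes and 2168 and 2315.5 in all filtered cells of the libraries. Thus Cyp1a1 was found almost only in endothelial cells, and within the air library at pnd60 it was highest in aerocytes. Of other genes known to respond to the same receptor, Tiparp was at 42.1 and 28.9 CPM in the aerocytes at pnd60, Nqo1 had 12 and 4 counts, and Ahrr and Cyp1b1 had 0, which did not allow a comparison. Xdh, which also responds to this receptor, had 174 and 185 counts, at 306 and 267 CPM (-0.19, -0.50 to 0.11).

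**Figure D5:**
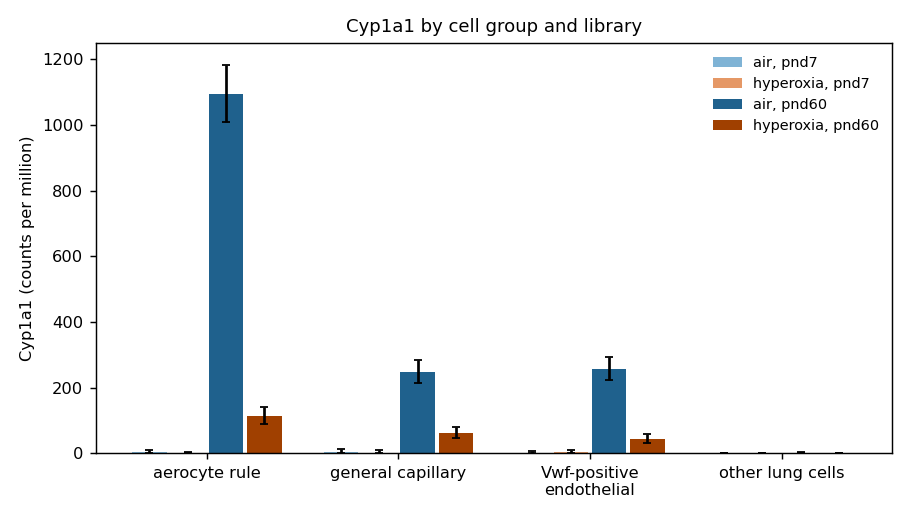
Cyp1a1 (CPM) in the summed counts of aerocytes, general capillary cells, Vwf-positive endothelial cells and all other lung cells, for each library, with exact 95% Poisson intervals. Aerocytes of the air library at pnd60 stand at 1092 CPM and those of the hyperoxia library at 113 CPM, and the levels at pnd7 and in other lung cells are near 0.

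Other genes were lower after hyperoxia at pnd60 by smaller amounts. Plcb4, a phospholipase C, was at 155 CPM in air and 65.0 CPM after hyperoxia, Crtc2, a coactivator of CREB, at 82.5 and 33.2 CPM, Golm1, a Golgi membrane protein, at 68.5 and 26.0 CPM, and Npr3, the clearance receptor of natriuretic peptides, at 126 and 52.0 CPM. Their log2 differences were -1.25, -1.31, -1.40 and -1.28, and they were -1.30, -1.42, -1.41 and -1.02 in the cells without another class. Klf2 and Klf4 were lower without passing 2-fold, at -0.75 (-0.88 to -0.61) and -0.78 (-0.92 to -0.65), and so was Cdkn1a, at 197 and 105 CPM (-0.90, -1.34 to -0.46). Of the p53 target list 0 of 10 measured genes and of the senescence list 0 of 10 were past 2-fold. With 2.09% higher and 0.618% lower among all measured genes, these counts cannot be set apart from the background.

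Among the higher genes, Egr1, an immediate early transcription factor, was at 91.3 CPM in air and 348 CPM after hyperoxia (1.93, 1.49 to 2.39). It was the 1 of 13 measured immediate early genes that passed 2-fold, against 2.09% higher and 0.618% lower of all measured genes. Gprc5a, an orphan receptor that is abundant in the lung, was at 49.2 and 129 CPM, Trip4, a transcriptional coactivator, and Pisd, a mitochondrial lipid enzyme, each at 21.1 and 54.9 CPM. In the cells without another class Egr1 stood at 1.55, Gprc5a at 1.41, Trip4 at 1.55 and Pisd at 1.97, and with the rule at equal depth Gprc5a stood at 0.77 and Golm1, among the lower genes, at -0.90. By contrast, Maf, Flt4 and Scgb1a1, which were also higher, had many of their counts in 1 cell, 48.4%, 40.4% and 93.6% after hyperoxia, while counts were found in 11, 40 and 125 of the 192 cells. In the cells without another class they stood at 3.76, 0.82 and 0.30. Type II cell genes were higher as well, 5 of 7 measured against 2.09% of all measured genes, with the sums of 2945 and 13422 CPM given above. In the cells without another class 2 of 3 measured were higher, against 0.761% of all measured genes. The part of such RNA in the differences between the libraries was not tested.

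The genes past 2-fold with hyperoxia were set side by side between the ages. Of 4345 genes measured in both comparisons, 48 were higher after hyperoxia at pnd7 and 83 at pnd60, and 7 were higher at both. On the lower side the numbers were 71 and 12, with 0 at both, and 35 genes were past 2-fold in opposite directions. Among all measured genes 1.59% were higher and 2.41% lower at pnd7, and 2.09% and 0.618% at pnd60. With shares this small, 0 lower genes at both ages cannot be set apart from the background. The 7 were 14.6% of the higher genes at pnd7 and 8.43% of those at pnd60. In the cells without another class 0 were higher at both, 0 were lower at both and 4 were opposite, of 3276.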

How the data were processed

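For every gene and cell barcode the authors deposited counts of unique molecules, made with Cell Ranger (3.1.0 in the matrix headers) and mm10 per the labels, and used Seurat 3.2.1. No annotation of cells was used here. Barcodes with more than 700 and fewer than 8000 genes and less than 5% mitochondrial counts were kept: 2308 of 4243 in air and 1246 of 2664 after hyperoxia at pnd7, 4397 of 5128 and 4756 of 5632 at pnd60, with 16648251, 13576172, 14744081 and 16533775 counts. Counts were summed over the aerocytes of a library and divided by their total (CPM). Intervals are exact Poisson for CPM, and Clopper-Pearson for shares and for log2 ratios. Genes with at least 50 counts in both libraries together (100 against other endothelial cells) were measured, and 2-fold was the size reported. A ratio against 0 counts used 3 counts and is a bound. Genes eligible for naming were those of the rule, those of fixed gene lists, the 10 highest and lowest ratios per comparison among genes in at least 10 aerocytes whose CPM there was not below that of the other cells, the 5 highest and lowest without these conditions, and the 15 highest and lowest against general capillary cells in their least favourable library, and only some of these are printed, since certain items are not reported here. The members and lists were chosen with earlier results of these data known. Scrublet marked 0, 4, 141 and 157 filtered cells, too few at pnd7 to be of use, and doublets stayed in. The calculation was tested on simulated data. Python 3.11.15, scipy 1.17.1, scanpy 1.11.5 and edgeR 4.0.16 (TMM) were used.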

Additional observations from a re-analysis of the deposited data

Results flagged for a closer look

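Some genes were past 2-fold in opposite directions under the same contrast, and these differences were not tested. For hyperoxia against air, the log2 ratios at pnd7 and pnd60 were -2.91 and 3.48 for Nrp2, -1.29 and 1.33 for Flt4, -5.09 and 6.71 for Mmrn1, -4.76 and 4.39 for Prox1, -1.16 and 6.67 for Maf, -6.13 and 2.00 for Scgb1a1, and -1.27 and 1.93 for Egr1. For pnd60 against pnd7, the ratios in air and after hyperoxia were -3.52 and 2.88 for Nrp2, -6.28 and 5.52 for Mmrn1, -4.95 and 4.20 for Prox1, -6.12 and 1.71 for Maf, and -1.90 and 1.30 for Egr1. Nrp2, Flt4, Mmrn1, Prox1 and Maf are genes of lymphatic endothelium, and 2 cells in air at pnd7 and 2 after hyperoxia at pnd60 had at least 2 counts of Prox1 and Mmrn1 together. The top cell held 84.0% of the Nrp2 counts and 72.4% of the Maf counts in air at pnd7, and 44.2% and 48.4% after hyperoxia at pnd60. Egr1 was in 25, 22, 27 and 35 cells, with 32.1%, 31.1%, 13.5% and 22.8% of its counts in the top cell. For the airway gene Scgb1a1 the top cell held 54.3% of the counts in air at pnd7 and 93.6% after hyperoxia at pnd60. In the cells without another class its ratios for hyperoxia against air were -2.75 at pnd7 and 0.30 at pnd60, the latter below 2-fold.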

How the results depend on the processing

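No paired analysis was possible because a second library of any condition was not analysed here, and for the same reason no library could be left out. The alternatives that kept cells with both genes, left out erythroid and lymphatic cells, or applied the rule at 1000 counts were chosen after seeing the data. Against 11.5%, 20%, 16.0% and 16.0% of endothelial cells, the aerocyte share was 24.5%, 30.1%, 25.8% and 23.6% with at least 1 count of Car4 and Ednrb, 7.16%, 14.8%, 11.7% and 12.4% with at least 3, and 7.97%, 12.6%, 13.9% and 14.1% at 1000 counts. With 3 endothelial genes it was 17.8%, 22.4%, 19.4% and 19.9%, without the Vwf condition 13.7%, 25.2%, 17.8% and 17.3%, and without cells of another class 7.75%, 17.1%, 14.6% and 14.5%. Genes past 2-fold with hyperoxia numbered 214 at pnd7 and 140 at pnd60. These became 13 and 21 with aerocytes reduced to 1000 counts, 122 and 58 without cells of another class, 656 and 544 with a minimum of 20 counts, 41 and 19 with 200, 729 and 587 at 1.5-fold, 67 and 56 without erythroid and lymphatic cells as well, and 35 and 68 with the rule at 1000 counts. A mean over cells gave 428 at pnd7, and at pnd60 removing Scrublet calls gave 80 and cells with both genes 76. With age, 1633 genes in air and 1575 after hyperoxia became 405 and 426 reduced to 1000 counts, 2842 and 2681 with 20 counts, 506 and 486 with 200, 2785 and 2970 at 1.5-fold, and 657 and 628 with the rule at 1000 counts. Against general capillary cells 79 genes became 119 with at least 3 counts, and against Vwf-positive cells 173 became 92 at 1000 counts. For hyperoxia at pnd7, Cenpf, Ube2c, Ccnb1 and Cdk1 reversed to 0.43, 0.61, 1.04 and 0.29 with at least 3 counts, Flt4 to 0.21 with both genes, Hba-a2 and Hbb-bs to -0.53 and -0.22 and Gclc to 0.18 without cells of another class, of erythroid counts and of lymphatic genes, and with the rule at 1000 counts Hba-a2 to -0.83 and Egr1 to 1.38. At pnd60, Flt4 reversed to -0.26, -0.21 and -0.014 with at least 3 counts, both genes and the rule at 1000 counts, and Scgb1a1 to -2.23, -2.35 and -2.03, and also to -1.61 by a mean over cells and -1.68 reduced to 1000 counts. With age in air, Cdkn2b reversed to -0.052 and Egr1 to 0.41 with the rule at 1000 counts, and the VEGF list to -0.36 with 20 counts. In the cells with both genes, Hey1 and Ptprb reversed with age to -0.21 and -0.040 in air, and Ptprb and Vegfd to -0.66 and 2.71 after hyperoxia. The cause of these changes was not tested. Genes under 50 counts, Cdkn1a with hyperoxia at pnd7 among them, were not measured at this depth.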

Other observations

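Other gene lists were measured in the aerocytes as well. Of the junction and caveola list, which holds the proteins that seal and shape the endothelium, 0 of 15 measured genes at pnd7 and 0 of 14 at pnd60 were past 2-fold with hyperoxia, and 3 of 15 (Cav1, Cav2 and Cavin2) were higher and 1 (Cgnl1) lower with age in air, against 16.8% and 14.8% of all measured genes, and 0 of 15 after hyperoxia. Of the glycolysis and hypoxia list, 0 of 10 and 0 of 11 were past 2-fold with hyperoxia, and with age 3 of 11 were higher and 1 lower in air, and 1 was higher and 1 lower of 11 after hyperoxia, where 16.9% of all measured genes were higher and 11.6% lower. Of the interferon list, 0 of 5 measured genes at pnd7 and 0 of 10 at pnd60 were past 2-fold with hyperoxia. With age 3 of 8 were higher in air (median 0.75) and 5 of 9 after hyperoxia (median 1.44), against 16.8% and 16.9% of all measured genes. None was lower, against 14.8% and 11.6%. Of the genes regulated by Nrf2, 0 of 13 were higher and 1 (Gclc) lower with hyperoxia at pnd7, and 1 of 12 (Ftl1) was higher and 0 lower at pnd60. The shares of all measured genes were 1.59% and 2.41% at pnd7 and 2.09% and 0.618% at pnd60. In the cells without another class neither Gclc nor Ftl1 passed 2-fold, at -0.095 and 0.97.

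Cdkn1a was itself higher in adult aerocytes, at 8.43 CPM in air at pnd7 and 197 CPM in air at pnd60 (log2 4.54, 3.38 to 6.02), and at 30.6 and 105 CPM after hyperoxia (1.78, 1.09 to 2.53). In general capillary cells it was at 12.2, 12.4, 55.2 and 28.0 CPM.

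Genes of matrix breakdown and cytokine release on the list of secreted senescence factors were mostly below 50 counts, with 6 of 25 measured at pnd7 and 7 of 25 at pnd60 for hyperoxia against air. Of these, 0 were past 2-fold at pnd7, where 1.59% of all measured genes were higher and 2.41% lower. At pnd60 2 (Mmp14 and Cxcl2) were higher and none lower, against 2.09% and 0.618%, and 0 of 3 measured genes were past 2-fold in the cells without another class.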
